A study of Drosophila melanogaster with 3 samples.

Results

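The genes of the DNA replication machinery were examined in salivary glands of third-instar (L3) Drosophila melanogaster larvae. The set was a named list of 37 genes for origin recognition, licensing, the replicative helicase, polymerases, the sliding clamp and nucleotide supply. Matching by gene symbol or synonym found 34 of them among the 17278 genes of the deposited table. Orc1, RPA2 and RPA3 had annotation identifiers that the table does not hold and were not analysed here.

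The study provided 3 libraries of 1 control group, each from 50 dissected glands of flies kept at 25 °C and each made from poly(A) RNA. The sample titles name an Oregon wild-type stock, the genotype field reads yw, and which of these applies is not known. The labels do not say whether the samples came from separate cultures, and p-values over them measure only their spread, which may be technical. With 1 group, the data give levels within the tissue and their spread, and no contrast between conditions.

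Replication origins are licensed when the origin recognition complex (ORC), Cdc6 and Cdt1 load the ring-shaped MCM helicase onto DNA. The kinase Cdc7 and cyclin-dependent kinases then switch the helicase on with Cdc45 and the GINS complex, and the polymerases follow with their clamp PCNA. Larval gland cells repeat this S phase without division (the endocycle) and build giant polytene chromosomes. Genetic work in the fly has reported endoreplication in cells that lack ORC subunits.

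Values are FPKM, fragments scaled to gene length and to a depth figure per library, so that levels of genes of different length can be compared. The depth figures implied by the values were 499875, 727436 and 945562 fragments in replicates 1, 2 and 3. All recovered fragments numbered 1509430, 1490257 and 1571524. The implied figures lay below these and differed from the fragments outside rRNA genes, by a factor that varied between libraries. The reason was not tested, and all levels here are on this deposited scale. Replicates 1, 2 and 3 held 678714, 874004 and 1185541 recovered fragments outside rRNA genes, while rRNA genes took 55.0%, 41.4% and 24.6% of all recovered fragments. The replication genes together held 164, 230 and 281 fragments, or 0.0242%, 0.0263% and 0.0237% of those outside rRNA genes. Of the 34 genes, 21 rested on fewer than 20 fragments in the 3 libraries together and 14 on fewer than 10. The gland's own markers stood far above these levels, with the glue gene Sgs7 highest at 311039 ± 52891 FPKM (SD, n = 3), and all 8 gland markers were detected. In whole glands, fewer cells of a type and less RNA per cell cannot be told apart.

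Most of the replication genes were present at low levels. A gene counted as detected when it reached 1 FPKM in every library, and 18 of the 34 did so, against 33.1% of all genes in the table and 40.1% of the 13829 protein-coding genes. The median replication gene had a mean of 2.98 FPKM, against 0.847 for protein-coding genes. The 18 detected replication genes had a median of 4.82 FPKM, against 11.6 for all 5711 detected genes. RnrS was the only one of the 34 above that second median. The genes above 0 lay between the 44.9th percentile (Orc5) and the 88.7th percentile (RnrS) of protein-coding genes by mean FPKM.

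**Figure D1:**
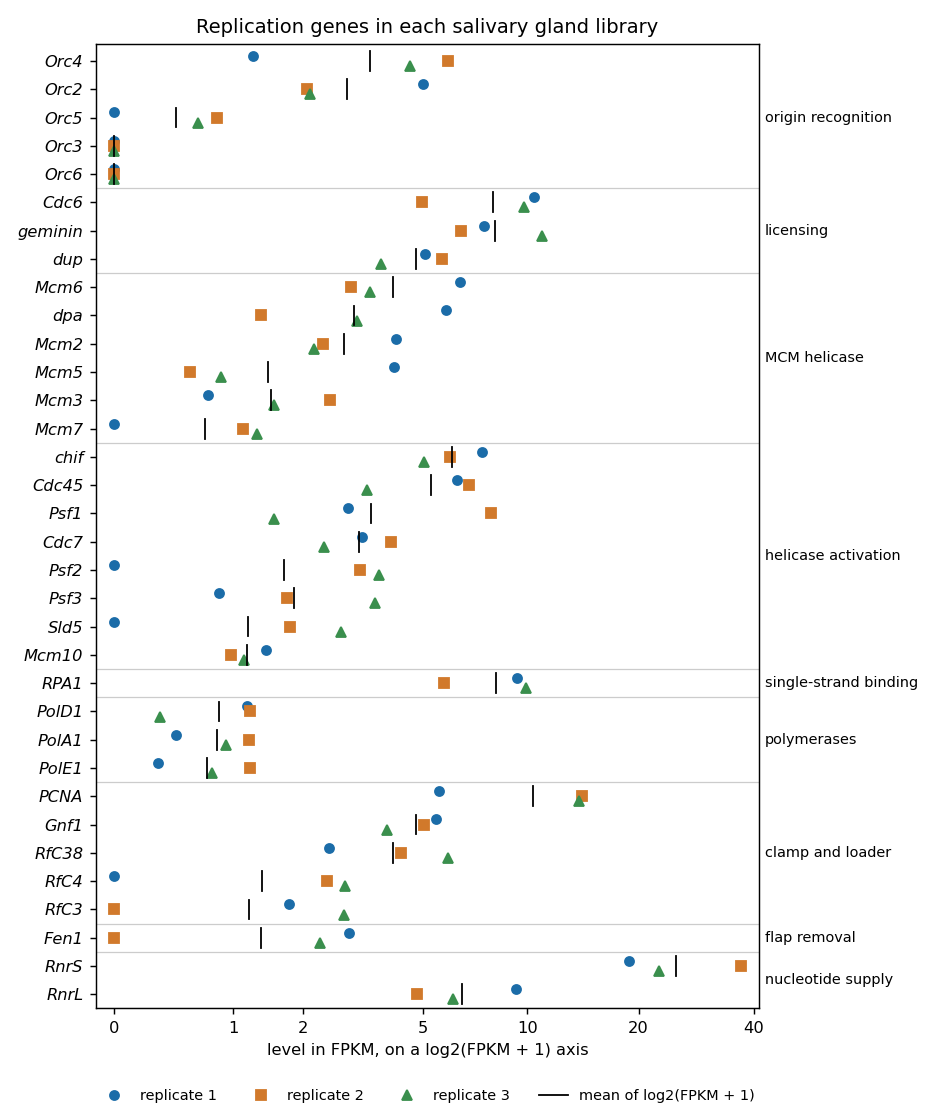
Level of each of the 34 replication genes in FPKM (x axis, spaced as log2(FPKM + 1)), by role; circles, squares and triangles are replicates 1, 2 and 3 and the black bar is the mean of log2(FPKM + 1). RnrS lies at 18.8 to 37.1 FPKM, above every other gene of the set in each library, while Orc3 and Orc6 lie at 0 in all 3.

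The highest gene of the set belonged to nucleotide supply. Ribonucleotide reductase makes the deoxynucleotides for DNA synthesis from a large subunit, RnrL, and a small subunit, RnrS. RnrS (2R, 11983145 to 11985393 in BDGP6.54) had 18.8, 37.1 and 22.6 FPKM in replicates 1, 2 and 3, a mean of 26.2 ± 9.65 (SD, n = 3). RnrL (2L, 10325026 to 10327943) had 9.32, 4.80 and 6.16 FPKM, a mean of 6.76 ± 2.32 (SD, n = 3), the 6th highest of the set. The groups of values did not overlap, and RnrS was higher in all 3 libraries. RnrL minus RnrS was -1.79 ± 0.89 on the log2(FPKM + 1) scale (SD, n = 3), larger than the spread. The two-sided exact sign-flip permutation test gave p = 0.25, the smallest that 3 libraries allow (adjusted p = 0.5 over the 6 pairs compared). Per exon base, RnrS had 4.13 times the fragments of RnrL (95% exact interval 2.78 to 6.26, counting error only), from 92 and 36 fragments.

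All 3 licensing genes were detected. Cdc6, the ATPase that joins ORC in loading the helicase, had 10.5, 4.98 and 9.80 FPKM. geminin, which encodes the inhibitor of Cdt1, had 7.54, 6.48 and 10.96 FPKM, and dup, which encodes Cdt1 itself, had 5.10, 5.70 and 3.71. The inhibitor gene was above dup in each library. dup minus geminin was -0.66 ± 0.61 on the log2(FPKM + 1) scale (SD, n = 3, exact sign-flip p = 0.25, adjusted p = 0.5), and -0.32 without replicate 3. Per exon base, geminin had 1.85 times the fragments of dup, with a 95% exact interval of 1.002 to 3.33, from 20 and 32 fragments. dup shares 5.04% of its exon bases with SRPK on the opposite strand, and geminin shares none. On its unshared bases dup had a pooled level of 4.94 FPKM, above the 4.69 FPKM on all of them, against 8.68 for geminin. The interval of the ratio was not computed for unshared bases, so an excess of geminin beyond counting error is not shown there. The pooled 95% Poisson intervals on unshared bases, 3.38 to 6.98 FPKM for dup and 5.30 to 13.4 for geminin, overlap.

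Genes of ORC itself were low or not seen. Orc4 had 1.24, 5.96 and 4.58 FPKM from 15 fragments, and Orc2 had 5.01, 2.07 and 2.12 from 12. These were the only detected members among the 5 ORC genes in the table, and their ranges overlapped. The call for Orc4 rests on 1 fragment in replicate 1 and ends at a limit of 2 FPKM or of 3 fragments in every library. Orc5 had 0, 0.815 and 0.627 FPKM, from 2 fragments in all. Orc6 (2R, 9845458 to 9846485) and Orc3 (2R, 13202728 to 13206547) were listed at 0 in every library, as were 32.3% of protein-coding genes.

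The zeros of Orc6 and Orc3 differ in what they say. Orc6 shares 5.66% of its exon bases with Sting on the opposite strand, and a count of 0 allows up to 6.17, 4.24 and 3.26 FPKM in replicates 1, 2 and 3. The mean of Orc2, 3.07 FPKM, lies under the limit of each library, so a 0 in any single library does not exclude a level like it. With 3 fragments over the group as the limit, the bound for Orc6 is 1.42 FPKM. Orc3 has all of its exon bases inside exons of CG34315 on the same strand, which was listed at 0 too. In the table, 592 of 602 genes without an unshared exon base were at 0 in every library (98.3%), against 43.9% of the 11421 genes that share none. The level of Orc3 is therefore not known from these values.

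The 6 genes of the MCM ring, whose products assemble in equal numbers, had low values that counting error mostly did not separate. Mcm6 had 6.45, 2.96 and 3.41 FPKM, dpa (the Mcm4 gene) had 5.86, 1.34 and 3.10, and Mcm2 had 4.14, 2.37 and 2.19. These were the detected ones, each highest in replicate 1. Mcm3 had 0.728, 2.50 and 1.54 FPKM, Mcm5 had 4.08, 0.561 and 0.863, and Mcm7 had 0, 1.12 and 1.29. Between the pooled 95% Poisson intervals of the ring's genes, 1 of 15 pairs did not overlap, that of Mcm6 (2.54 to 5.89 FPKM) and Mcm7 (0.305 to 2.19 FPKM).

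Mcm7 is the ring gene whose annotation overlaps most with another gene. On the opposite strand, asRNA:CR45871 covers 81.7% of the exon bases of Mcm7, and this RNA was listed at 0. The 5 fragments of Mcm7, set against its 448 unshared bases only, correspond to 5.14 FPKM (95% Poisson interval 1.67 to 12.0), which overlaps the interval of Mcm6. This second value assumes that no fragment from shared bases was counted, which the sources used here do not state. In the table, 123 genes share all exon bases on the opposite strand and none on the same strand. Of these, 121 were at 0 in every library (98.4%), against 43.9% of the genes that share none. Mcm2 and RPA1 lie head to head on 3R, with 518 bases between them.

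**Figure D2:**
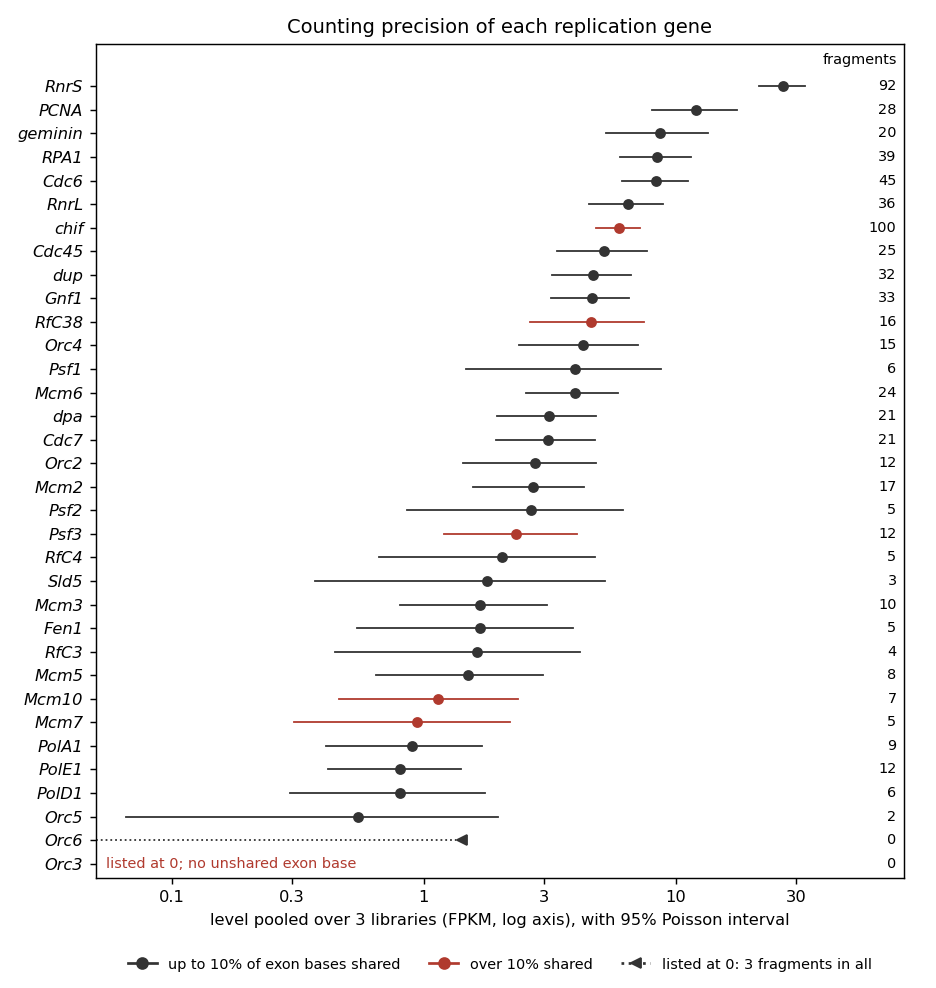
Level of each replication gene pooled over the 3 libraries (x axis, FPKM, log scale) with its 95% Poisson interval and, at the right, its recovered fragments; red marks genes that share over 10% of their exon bases with another gene. The interval of RnrS (21.4 to 32.6 FPKM) lies above all others, and most lower genes overlap their neighbours; the arrow for Orc6 marks 3 fragments over the group.

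Helicase activation involved 8 genes, of which 4 were detected. chif, which encodes the Dbf4-like activator of Cdc7 and also a product that binds the acetyltransferase Gcn5, had 7.49, 6.03 and 5.05 FPKM from 100 fragments, the most of any replication gene. Its kinase partner gene Cdc7 had 3.22, 3.99 and 2.39 FPKM from 21 fragments. chif was the higher in every library and the value ranges did not overlap. chif minus Cdc7 was 0.78 ± 0.26 on the log2(FPKM + 1) scale (SD, n = 3, exact sign-flip p = 0.25, adjusted p = 0.5), and the ratio of fragments per exon base was 1.91 (95% exact interval 1.18 to 3.22). chif shares 19.5% of its exon bases with Hyls1 on the same strand, and Hyls1, which has no unshared exon base, was listed at 0.

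Cdc45, matched through the synonym CDC45L, had 6.32, 6.83 and 3.34 FPKM. Psf1 had 2.89, 7.95 and 1.53 FPKM from 6 fragments, and was the only gene of the GINS complex, which joins Cdc45 and the MCM ring, to reach 1 FPKM in every library. That call rests on 1 fragment each in replicates 1 and 3 of a gene of 692 exon bases, and ends where at least 3 fragments per library are asked for. Psf3, below the limit in replicate 1, had 12 fragments. The other GINS genes had 0, 3.17 and 3.66 FPKM (Psf2), 0.841, 1.73 and 3.55 (Psf3), and 0, 1.78 and 2.74 (Sld5). All 4 GINS genes overlapped in their pooled intervals. Psf3 shares 34.9% of its exon bases with CG17841 on the opposite strand, which had 5.45 ± 1.97 FPKM (SD, n = 3). Mcm10, a helicase activation factor, had 1.42, 0.975 and 1.13 FPKM from 7 fragments, so its values lay on both sides of the detection limit. On the opposite strand, Ret covers 13.0% of its exon bases.

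RPA1, matched through the synonym RpA-70, encodes the large subunit of the protein that coats single-stranded DNA. It had 9.37, 5.79 and 9.91 FPKM, a mean of 8.36 ± 2.24 (SD, n = 3). Its level was close to those of Cdc6 (8.42 ± 2.99) and geminin (8.33 ± 2.34), from which it did not differ beyond the spread.

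None of the catalytic subunit genes of the replicative polymerases was detected. PolA1, whose enzyme starts new strands with primase, had 0.433, 1.19 and 0.915 FPKM. PolD1, of the enzyme assigned mainly to the lagging strand, had 1.16, 1.20 and 0.307. PolE1, of the enzyme assigned mainly to the leading strand, had 0.292, 1.20 and 0.772. Each rested on 6 to 12 fragments, and all 3 had values on both sides of 1 FPKM. PolA1 minus PolD1 was -0.02 ± 0.57, PolA1 minus PolE1 was 0.08 ± 0.08 and PolD1 minus PolE1 was 0.10 ± 0.60 on the log2(FPKM + 1) scale (SD, n = 3). The exact sign-flip p was 0.75, 0.5 and 1 (adjusted p = 0.9, 0.75 and 1). The ratios of fragments per exon base were 1.12 (95% exact interval 0.355 to 3.81), 1.11 (0.413 to 2.87) and 0.995 (0.307 to 2.87), so a difference of a few fold in either direction was not detectable at this depth. PolD1 minus PolE1 was -0.22 without replicate 1, and PolA1 minus PolD1 was 0.27 without it.

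The clamp gene was well above most of the loader genes in the set. PCNA (2R, 20261754 to 20262883), the ring that tethers polymerases to DNA, had 5.61, 14.1 and 13.8 FPKM, a mean of 11.2 ± 4.84 (SD, n = 3). Replicate 1 was the low library for PCNA, with 3 fragments (95% Poisson interval 1.16 to 16.4 FPKM) that still overlap replicate 2 (7.05 to 25.3). Gnf1, the large subunit gene of the clamp loader, had 5.50, 5.04 and 3.88 FPKM, and RfC38 had 2.49, 4.29 and 5.93. RfC4 had 0, 2.44 and 2.82 FPKM, and RfC3 had 1.76, 0 and 2.80. The pooled interval of PCNA (8.003 to 17.4 FPKM) lay above those of the 4 loader genes in the set, while those of these loader genes overlapped each other. RfC38 shares 25.2% of its exon bases with Nup160; on its unshared bases its interval, 3.51 to 9.96 FPKM, overlaps that of PCNA. Fen1, the nuclease that trims flaps between lagging-strand fragments, had 2.90, 0 and 2.30 FPKM from 5 fragments.

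Pooling fragments over the genes of a role gave more precise levels. Nucleotide supply had 13.0, 17.1 and 12.4 FPKM in replicates 1, 2 and 3, licensing 7.48, 5.55 and 7.12, clamp and loader 3.66, 5.02 and 5.28, and helicase activation 4.37, 4.40 and 3.49. The MCM ring had 3.66, 1.84 and 2.13, ORC 1.25, 1.58 and 1.32, and the polymerases 0.537, 1.20 and 0.709. Nucleotide supply, licensing, the MCM ring, ORC and the polymerases kept this order in each library, but counting error did not separate all of them. The Poisson interval of ORC overlapped those of the MCM ring and of the polymerases in every library. The intervals of the MCM ring and the polymerases overlapped in replicate 2 only. Those of nucleotide supply and licensing overlapped in replicates 1 and 3, and those of licensing and the MCM ring in replicate 1. The first place in this order is that of RnrS, since RnrL alone lay below pooled licensing in replicates 2 and 3. With only the unshared bases of every gene as length, ORC had 1.98, 2.49 and 2.09 FPKM against 4.18, 2.11 and 2.43 for the MCM ring, so that ORC lay below the ring in replicates 1 and 3 and above it in replicate 2.

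**Figure D3:**
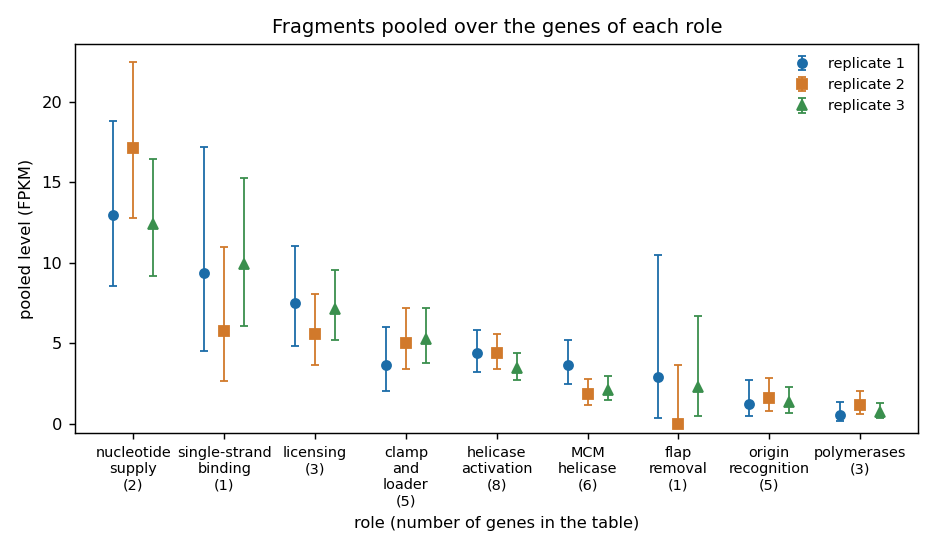
Level of each role in FPKM (y axis) after pooling the fragments of its genes, for replicates 1, 2 and 3, with 95% Poisson intervals; numbers in brackets count the genes. Nucleotide supply is highest with 12.4 to 17.1 FPKM and the polymerases lowest with 0.537 to 1.20 FPKM, apart from Fen1, listed at 0 in replicate 2.

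Ordered by mean FPKM, few neighbouring genes could be told apart, where the sorting itself keeps the differences small. The count of such pairs does not measure how genes further apart in the order differ. Of the 33 neighbour pairs, 3 differed by more than the SD of their difference, and 1 of these, RnrS over PCNA, also had intervals that did not overlap. The difference of RnrS minus PCNA was 1.20 ± 0.47 in log2(FPKM + 1) units (SD, n = 3). The other 2 pairs were at the bottom of the order, PolE1 over Orc5 and Orc5 over Orc3, and the latter has no known level here. Exon length and mean FPKM were weakly related across the 32 genes above 0 (Spearman's rho = -0.13), as across the 5551 detected protein-coding genes (rho = -0.22). All points in each set share the same libraries.

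Between libraries, no single replicate was the highest for most of the genes. Of the 32 genes above 0, 11 were highest in replicate 1, 12 in replicate 2 and 9 in replicate 3. Of the same 32, 5 were at 0 in replicate 1 alone, the library with the fewest fragments outside rRNA genes, and 2 in replicate 2 alone. Replicates 1, 2 and 3 had 7470, 8773 and 8213 genes of the table above 0. The matching shares over all genes are not given here, so these counts do not set the replication genes apart. For none of the 34 genes did the 95% Poisson intervals of any 2 libraries fail to overlap, against 7.17% of the 6245 genes with as many fragments (2 to 100). The 18 detected genes deviated from their own means by medians of 0.18, 0.02 and -0.17 on the log2(FPKM + 1) scale in replicates 1, 2 and 3, a range of 0.35. All detected genes deviated by 0.01, -0.04 and 0.04, a range of 0.0819. Shorter lists had ranges on both sides of that of the replication genes. The range was 0.061 for the 3 detected mitosis genes, 0.231 for the further replication genes and 0.338 for the endocycle regulators. It was 0.412 for the gland markers, 0.760 for the fat body markers and 1.35 for the 1 detected hemocyte marker. For the detected replication genes, the range was 0.054 without replicate 1, 0.394 without replicate 2 and 0.149 without replicate 3. It was 0.327 for the 13 genes of at least 20 fragments and 0.055 over all 34 genes. Within 1 group of libraries, these deviations have no test.

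Genes beside the machinery gave a frame for its levels. A further list of 35 replication genes, covering primase, accessory polymerase subunits, topoisomerases, fork factors, chromatin assembly and nucleotide enzymes, had 31 members in the table that were not already counted. Of these, 16 were detected, against 33.1% of all genes. Caf1-55, a histone-binding protein shared by several chromatin complexes, led with 37.7 ± 1.65 FPKM, followed by the topoisomerase gene Top1 with 22.6 ± 4.46 (SD, n = 3). The histone chaperone gene asf1 had 16.4 ± 3.81 FPKM (SD, n = 3). Listed at 0 were dUTPase, which clears dUTP, and SuUR, whose product slows replication forks in underreplicated parts of polytene chromosomes. Neither has an unshared exon base, so their levels are not known.

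Regulators of the endocycle had a median of 8.70 FPKM, against 2.98 for the replication genes, and 14 of 16 were detected, against 33.1% of all genes. E2f1 (18.9 ± 4.40 FPKM) and Dp (15.1 ± 3.56), whose products together activate S phase genes, and Dref (11.6 ± 4.97), a factor for replication gene promoters, led those named here (SD, n = 3). The kinase inhibitor gene dap had 3.80 ± 0.949 FPKM and Cdk2 had 2.04 ± 0.743 (SD, n = 3). CycE, whose cyclin drives S phase with Cdk2, had 0.396, 2.18 and 0.838 FPKM and was not detected in every library. Exons of other genes cover 43.9% of the exon bases of Cdk2.

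The gland also carries a ring of small diploid imaginal cells, which can divide. Of 15 mitosis genes, 3 were detected, against 33.1% of all genes, led by Bub1 at 5.93 ± 0.147 FPKM (SD, n = 3), and their median was 1.07 FPKM. Their summed level was 18.4, 29.5 and 21.4 FPKM in replicates 1, 2 and 3, against 131, 146 and 140 for the 34 replication genes. At least 1 library was at 0 for 8 of the 15, and cid was at 0 in 2. Among the 8, CycB had 0, 7.67 and 2.43 FPKM in replicates 1, 2 and 3, from 24 fragments. All 6 fat body markers were detected, led by Fbp1 at 926 ± 606 FPKM, with sums of 2882, 4100 and 4273. Of 6 hemocyte markers 1 was detected, crq at 16.8 ± 8.68 FPKM (SD, n = 3), and their sums were 13.9, 34.0 and 17.5. The defining hemocyte gene Hml had 0.851, 0.702 and 0.900 FPKM, and He had 0, 4.09 and 0, from 2 fragments. The part of these cells in the levels of the replication genes was not tested.

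**Figure D4:**
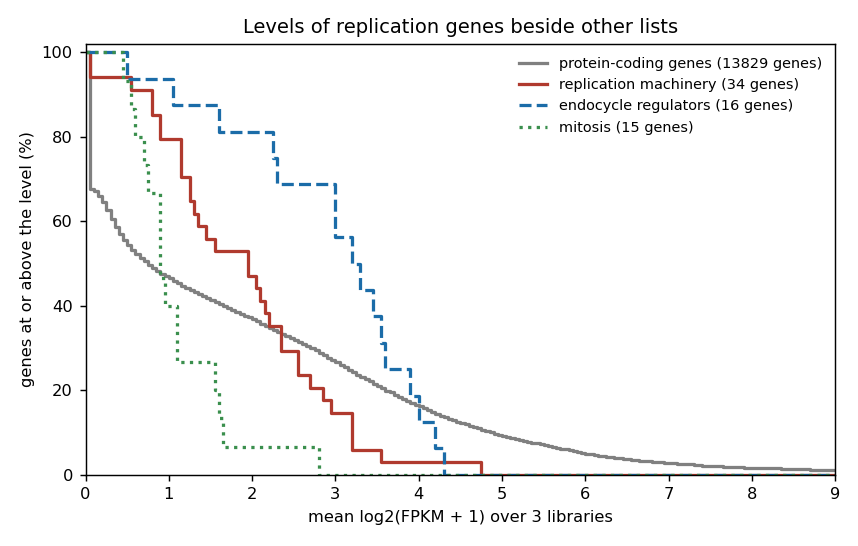
Share of genes (y axis, %) with a mean log2(FPKM + 1) at or above the level on the x axis, for the 34 replication genes, 16 endocycle regulators, 15 mitosis genes and 13829 protein-coding genes. The replication genes lie between the mitosis genes and the endocycle regulators over most of the range, with medians of 2.98, 1.07 and 8.70 FPKM in that order.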

How the data were processed

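The authors deposited 1 table of FPKM values, with 1 value per gene and library. HISAT2 and DESeq are named without versions in the submitters' processing notes; the sources used here give no build, annotation or counting program. The library kit marks strand, while the table's name marks the counting behind the deposited FPKM as unstranded, so reads of overlapping genes cannot be assigned by strand. Of 17278 identifiers, 17142 matched Ensembl BDGP6.54 (release 115), the source of all coordinates and exon lengths.

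FPKM times exon length gave whole multiples of 1 step per library, within 0.01, for 98.7% to 98.8% of values above 0 and for all 34 replication genes. These recovered fragments served for depth and intervals only, and no count model was fitted. A fragment in 1000 exon bases equals 2.0005, 1.37 and 1.06 FPKM in replicates 1, 2 and 3. Poisson and binomial intervals (95%) and the limit of 3 fragments for a count of 0 cover counting error only.

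Differences were taken on the log2(FPKM + 1) scale, whose pseudocount of 1 understates ratios of low genes. The 6 pairs were tested within libraries by two-sided exact sign-flip permutation with Benjamini-Hochberg adjustment and a threshold of 0.05. The replication genes, the lists and the pairs were chosen with earlier results of these data known. Named were all replication genes, the 4 highest (1 of them not reported here) and 2 lowest further replication genes, 6 endocycle genes and the highest gene of each marker list; cid, CycB, Hml, He and overlapping genes were added after their values were seen. Dna2, Sld3 and Psf4 of the further list were not matched. The step estimate was tested on simulated data. Scripts ran on scipy 1.17.1, pandas 2.3.3, numpy 2.4.6 and matplotlib 3.10.9 under Python 3.11.15.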

Additional observations from a re-analysis of the deposited data

How the results depend on the processing

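The count of 18 detected replication genes was 22 and 15 with limits of 0.5 and 2 FPKM, 15 with at least 3 fragments in every library, and 19 to 24 with 1 library left out. For the further replication genes, 16 became 10 with a limit of 2 FPKM and 10 with at least 3 fragments in every library. The median level of the replication genes, 1.94 on the log2(FPKM + 1) scale, was 1.53 with a pseudocount of 0.1, 1.62 as TPM without rRNA genes, and 1.83 to 1.99 with 1 library left out. The range of 0.35 between libraries in median deviation was 0.055 over all 34 genes without the filter and 0.054 to 0.394 with 1 library left out. PolA1 minus PolD1, -0.02, turned to 0.020 with a pseudocount of 0.1 and ran from -0.30 to 0.27 with 1 library left out; PolD1 minus PolE1 ran from -0.22 to 0.37. The cause was not tested. The other 4 pairs kept their direction under these alternatives. Lengths of unshared exon bases, added after seeing the data, gave 20 detected genes. No paired analysis was possible because there is 1 group, so no replicate number pairs libraries of different groups; differences between genes were taken within libraries. Depth limits most genes here, since 21 of 34 rest on fewer than 20 fragments.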
